A study of Mus musculus with 12 samples.

Results

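Expression of 10 genes of the G1/S transition and of endoreplication was measured in whole-kidney RNA sequencing libraries of 12 mice. They were the rows of the deposited table for the NCBI Gene numbers of Ccnd1, Ccne1, Ccne2, E2f1, E2f2, E2f7, E2f8, Cdt1, Gmnn and Rrm2, so 10 of 27179 genes, and all 10 were found. Values were TPM, a normalised transcript abundance that is per transcript length and can be set side by side between genes. The groups were 3 mice each of wild-type with saline, FAN1KO with saline, wild-type with cisplatin and FAN1KO with cisplatin. All mice were labelled as 8 to 12 weeks of age and of mixed strain background, while the study's methods give a 129Sv-Elite backcross. FAN1KO stands for a deletion of Fan1, a nuclease that helps repair DNA crosslinks, made by Cre under the Ggt1 promoter and so confined by design to the proximal tubule. The other kidney cells, which were also in each library, kept the gene. Cisplatin, a platinum drug that crosslinks DNA, was injected into the abdomen at 2 mg/kg once a week for 5 weeks, and the saline groups had saline injections instead.

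Cyclin D, made by Ccnd1, and cyclin E, made by Ccne1 and Ccne2, drive kinases that inactivate the retinoblastoma protein and so release E2F factors, which switch on genes of DNA synthesis. E2f1 and E2f2 encode activating E2F factors, while E2f7 and E2f8 encode atypical factors that repress the same targets and take part in endocycles, in which DNA is copied with no division between rounds. Cdt1 loads the replicative helicase onto origins, geminin (Gmnn) binds and blocks Cdt1, and Rrm2 is the subunit of ribonucleotide reductase whose supply limits the making of deoxynucleotides. Enlarged tubule nuclei are a hallmark of karyomegalic interstitial nephritis, the kidney disease that loss of FAN1 causes.

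Promoters of 250 bases before to 50 after the annotated start were taken from RefSeq (assembly GRCm38.p6) and were matched for 7 of the 10 genes, E2f2 having a pair of them. Ccne2, Ccnd1 and Gmnn were without an entry. Both strands were searched for the E2F sites TTTCCCGC, TTTCGCGC, TTTGCCGC and TTTGGCGC. A match was found in 3 of the 8 promoters, 1 each of Cdt1, E2f2 and E2f7, and in 2.26% of all 32851 promoters of this length. The windows of E2f1 and E2f8 and the downstream window of E2f2 lay wholly inside the annotated gene, past its outermost start. Bases before that start were not searched in E2f1 and E2f8, so the lack of a match says nothing of them. The 3 promoters with a match and that of Rrm2, the gene with the largest difference in log2(TPM + 1) between genotypes under cisplatin among the genes tested, are shown with the E2F site in capitals. The Rrm2 window held none of these letters.

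Cdt1, chr8:122567765-122568064, plus strand: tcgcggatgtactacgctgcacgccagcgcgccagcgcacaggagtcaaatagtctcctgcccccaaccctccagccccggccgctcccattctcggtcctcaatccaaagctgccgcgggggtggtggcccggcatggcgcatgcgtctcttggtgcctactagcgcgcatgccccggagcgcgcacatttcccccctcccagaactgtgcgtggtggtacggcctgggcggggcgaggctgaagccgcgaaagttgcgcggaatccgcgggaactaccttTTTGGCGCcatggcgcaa
E2f2, chr4:136172024-136172323, plus strand: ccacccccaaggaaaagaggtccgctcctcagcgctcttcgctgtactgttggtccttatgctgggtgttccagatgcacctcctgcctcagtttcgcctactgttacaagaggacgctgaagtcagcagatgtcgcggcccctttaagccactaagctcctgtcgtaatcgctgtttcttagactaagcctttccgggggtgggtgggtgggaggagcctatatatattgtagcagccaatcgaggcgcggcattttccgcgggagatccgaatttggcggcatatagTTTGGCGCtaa
E2f7, chr10:110745189-110745488, plus strand: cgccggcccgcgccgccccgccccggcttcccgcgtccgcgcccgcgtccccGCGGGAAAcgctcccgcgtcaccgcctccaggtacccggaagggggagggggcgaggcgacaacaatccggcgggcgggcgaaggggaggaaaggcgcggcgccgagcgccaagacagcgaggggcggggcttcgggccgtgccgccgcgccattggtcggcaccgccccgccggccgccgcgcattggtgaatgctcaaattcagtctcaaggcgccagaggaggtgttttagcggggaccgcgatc
Rrm2, chr12:24708004-24708303, plus strand: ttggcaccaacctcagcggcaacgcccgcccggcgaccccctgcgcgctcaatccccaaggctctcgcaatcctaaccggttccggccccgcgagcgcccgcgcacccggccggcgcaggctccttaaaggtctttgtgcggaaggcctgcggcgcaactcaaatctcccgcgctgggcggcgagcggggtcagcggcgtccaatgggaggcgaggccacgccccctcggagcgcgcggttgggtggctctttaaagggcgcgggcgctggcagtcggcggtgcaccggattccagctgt

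The Cdt1 and E2f2 matches were both TTTGGCGC, at 32 and 39 bases after the start. In E2f7 the match was TTTCCCGC on the opposite strand, 198 bases before the start, and it is therefore printed above as its reverse complement. The CCAAT box (CCAAT) stood in 5 of the 8 promoters, those of E2f2, E2f7, E2f8 and Rrm2, and in 37.4% of all promoters, and the cell cycle homology region, searched as TTTGAA and TTCGAA, stood in 2 of the 8, of E2f2 and E2f8, and in 19.2% of all. The windows with the cell cycle homology region were that of E2f8 and the downstream one of E2f2, which lay inside the annotated genes. These matches are letters in a window and none of the libraries measured binding.

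The targeted gene did not separate the genotypes in these libraries. Fan1 TPM ran from 1.98 to 3.80 in the 6 wild-type and from 1.17 to 3.51 in the 6 FAN1KO libraries, and the groups were taken as labelled. The libraries held 37201916 to 82947187 reads assigned to genes, as recovered from the steps in the TPM. In each group 1 library carried Y-linked RNA and the other 2 did not (wild-type saline replicate 3, FAN1KO saline replicate 1, wild-type cisplatin replicate 1 and FAN1KO cisplatin replicate 3), with a mean log2(TPM + 1) of 3.46 to 3.93 over Y-linked genes against at most 0.104 in the others. Sex was not among the labels. That library held the lowest value of its group for 8, 3, 9 and 7 of the 10 genes in these 4 groups, in the order given. Leaving it out of a group is given below wherever it changes a call among the 10 genes. In whole kidney, fewer cells of a type and less RNA per cell cannot be told apart.

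**Figure D1:**
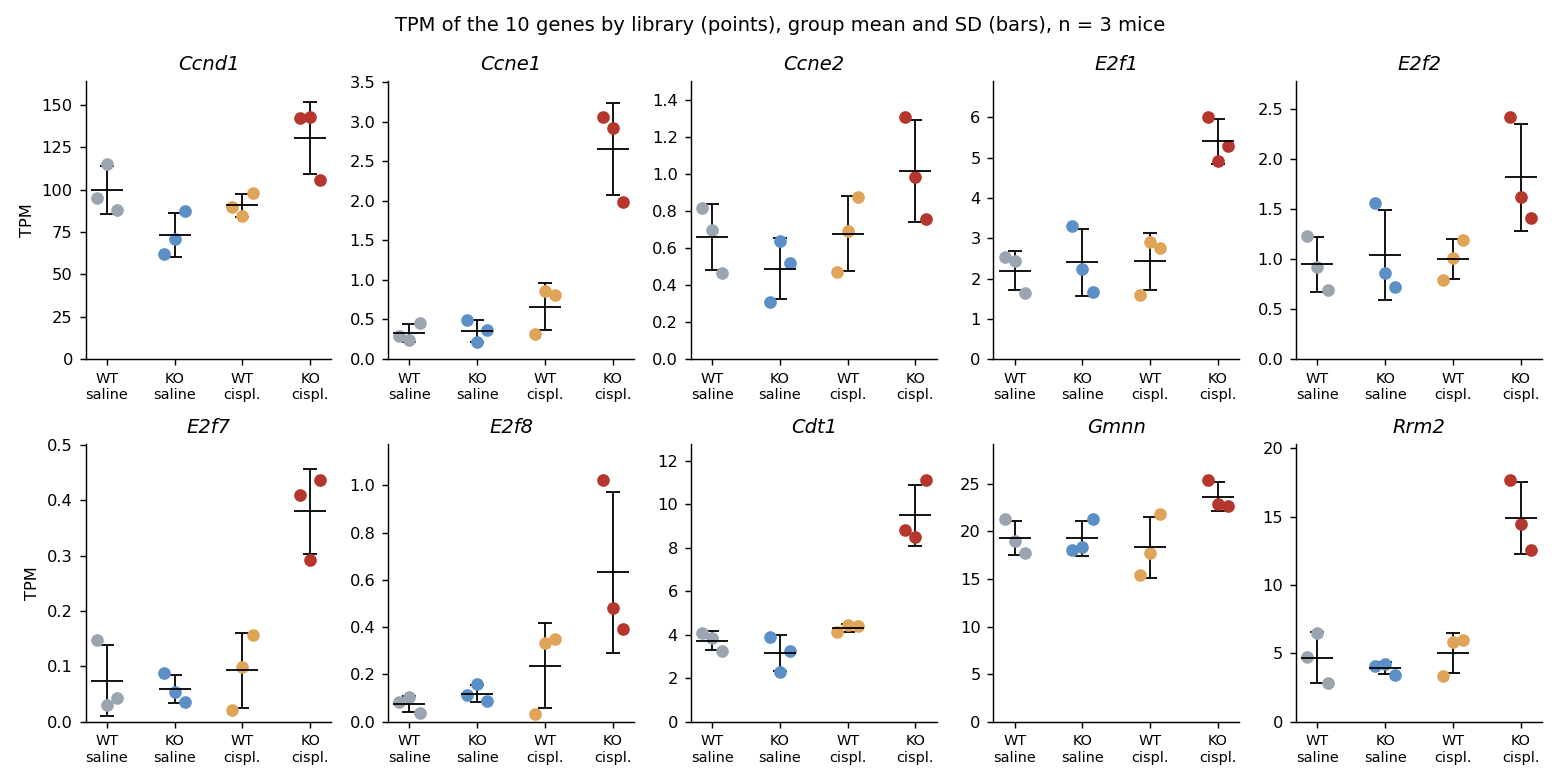
TPM of the 10 genes (y axis, from 0, a scale for each gene) in the 12 libraries, by group (x axis); points are mice, the long bar is the mean and the error bar the SD of 3. The FAN1KO cisplatin points stand above all 9 other points in 7 of the 10 panels, the others being Ccnd1 and Ccne2, which overlap wild-type saline, and E2f2, where a FAN1KO saline point at 1.56 lies among them.

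Levels of the 10 genes differed widely in untreated kidney. In wild-type saline kidneys the mean TPM ± SD (n = 3) was 99.7 ± 14.2 for Ccnd1 and 19.3 ± 1.81 for Gmnn, and these genes stood apart from each other and from all below. Rrm2 at 4.69 ± 1.83 and Cdt1 at 3.72 ± 0.431 overlapped in their values, and E2f1 followed at 2.20 ± 0.491. E2f2 at 0.948 ± 0.272 and Ccne2 at 0.660 ± 0.178 overlapped as neighbours, and Ccne1 followed at 0.328 ± 0.116. The atypical factors were lowest, E2f8 at 0.0752 ± 0.0337 and E2f7 at 0.0744 ± 0.0645, which overlapped and rested on no more than 10 and 26 reads per library.

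Under cisplatin, FAN1KO kidneys had higher RNA of cyclin D1, cyclin E1, E2F1, Cdt1 and Rrm2 than wild-type kidneys, with ratios of mean TPM from 1.44 to 4.01. None of the 7 genes tested was called in wild-type kidneys given cisplatin or in FAN1KO kidneys given saline. Tests used limma on log2(TPM + 1) with Benjamini-Hochberg adjustment over 14972 genes, those that reached a TPM of 1 in 3 or more libraries. Of the 10 genes 7 passed that filter, while Ccne2, E2f7 and E2f8 did not. Ccne1 passed it only through the FAN1KO cisplatin group, where it was high, so the counts that follow are descriptions. Between the genotypes under cisplatin 5 of the 7 genes tested were called higher and 0 lower, where 19.6% of all genes tested were called higher. Over these 7 genes the median log2 fold change was 0.92, and over all genes tested it was 0.24. For 9 of the 10 genes, all but Ccne2, the 3 FAN1KO values lay above the 3 wild-type values, as they did for 35.7% of all genes tested. With median-ratio scaling, which brings the median of all genes from 0.24 to -0.01 on the log2 scale, 3 of the 7 genes were called, and Ccnd1 and E2f1 were not. That scaling also moved the calls over all genes from 2931 higher and 654 lower to 1388 higher and 1155 lower.

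Ccnd1, the D-type cyclin gene that answers growth signals, was the most abundant of the 10 genes in every group. It stood at 95.4, 115 and 88.2 TPM in wild-type saline, 61.8, 70.8 and 87.3 in FAN1KO saline, 89.9, 84.6 and 98.0 in wild-type cisplatin and 143, 143 and 106 in FAN1KO cisplatin kidneys. The FAN1KO saline kidneys lay below every wild-type saline kidney, although by a small margin at the top, whereas the FAN1KO cisplatin kidneys lay above every wild-type cisplatin and every FAN1KO saline kidney, although FAN1KO cisplatin replicate 3 was under wild-type saline replicate 2. Under cisplatin the difference between genotypes was 0.51 ± 0.16 (log2 fold change of TPM + 1 ± SE, limma adjusted p = 0.0443). This call was held in 5 of the 12 fits that left out 1 library (adjusted p 0.0190 to 0.160) and was lost with median-ratio scaling, where the difference was 0.22 (limma adjusted p = 0.317). The libraries whose removal ended it were wild-type saline replicate 1, FAN1KO saline replicate 2, all 3 wild-type cisplatin replicates and FAN1KO cisplatin replicates 1 and 2. Under saline the difference was -0.44 ± 0.16 (limma adjusted p = 0.411).

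Ccne1, the cyclin E gene whose kinase partner is CDK2, set the FAN1KO cisplatin kidneys clear of all others. It stood at 0.288, 0.238 and 0.459 TPM in wild-type saline, 0.490, 0.214 and 0.368 in FAN1KO saline, 0.317, 0.857 and 0.807 in wild-type cisplatin and 3.05, 2.92 and 1.98 in FAN1KO cisplatin kidneys. These values rest on 10 to 45 reads in the 9 libraries of the first 3 groups and on 86 to 128 reads in the last. The lowest FAN1KO cisplatin value lay above the highest of the 9 others. The mean TPM was 0.661 ± 0.298 in wild-type and 2.65 ± 0.582 in FAN1KO cisplatin kidneys (SD, n = 3), a ratio of 4.01. On the log2 scale of TPM + 1, which understates changes of low genes, the difference was 1.14 ± 0.19 (limma adjusted p = 0.00335), and it was called in all 12 fits that left out 1 library. Ccne1 passed the filter only through the FAN1KO cisplatin group, where it was high, and the filter was not set anew in those fits. Its p and its calls are therefore descriptions.

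Ccne2, the other cyclin E gene, did not separate the genotypes. It stood at 0.816, 0.697 and 0.465 TPM in wild-type saline, 0.309, 0.638 and 0.522 in FAN1KO saline, 0.469, 0.690 and 0.878 in wild-type cisplatin and 1.31, 0.983 and 0.757 in FAN1KO cisplatin kidneys. The cisplatin groups overlapped, since the lowest FAN1KO value was under the highest wild-type value. On reads recovered from the TPM, limma's voom over the 20001 genes with at least 10 reads gave a difference of 0.59 ± 0.37 (log2 ± SE, adjusted p = 0.295), a fit chosen after the values were seen. Between treatments the FAN1KO groups did not overlap, and the same fit gave 1.04 ± 0.39 (limma voom adjusted p = 0.0644).

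Among the activating E2F genes, E2f1 passed the test and E2f2 did not. E2f1 TPM was 2.53, 2.43 and 1.63 in wild-type saline, 3.31, 2.23 and 1.67 in FAN1KO saline, 1.60, 2.91 and 2.76 in wild-type cisplatin and 6.00, 4.93 and 5.28 in FAN1KO cisplatin kidneys. All 3 FAN1KO cisplatin values stood above the other 9. The genotype difference under cisplatin was 0.92 ± 0.23 (log2 fold change of TPM + 1 ± SE, limma adjusted p = 0.0159), with a ratio of mean TPM of 2.23. It was not called without wild-type cisplatin replicate 1 or without FAN1KO cisplatin replicate 1 (limma adjusted p up to 0.0672), nor with median-ratio scaling (0.69, limma adjusted p = 0.0530). E2f2 TPM was 1.23, 0.920 and 0.691 in wild-type saline, 1.56, 0.857 and 0.717 in FAN1KO saline, 0.792, 1.01 and 1.19 in wild-type cisplatin and 2.42, 1.63 and 1.41 in FAN1KO cisplatin kidneys. The cisplatin groups did not overlap, but FAN1KO saline replicate 1 reached into the FAN1KO cisplatin values. The genotype difference under cisplatin was 0.48 ± 0.21 (limma adjusted p = 0.116).

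The atypical repressors E2f7 and E2f8 did not pass the filter, and their values rest on few reads. E2f7 TPM was 0.148, 0.0309 and 0.0437 in wild-type saline, 0.0875, 0.0535 and 0.0365 in FAN1KO saline, 0.0216, 0.0993 and 0.157 in wild-type cisplatin and 0.410, 0.293 and 0.437 in FAN1KO cisplatin kidneys. The FAN1KO cisplatin libraries, with 36 to 53 reads, stood above all others, which had 4 to 26. E2f8 TPM was 0.0847, 0.103 and 0.0379 in wild-type saline, 0.111, 0.159 and 0.0867 in FAN1KO saline, 0.0320, 0.331 and 0.350 in wild-type cisplatin and 1.02, 0.483 and 0.391 in FAN1KO cisplatin kidneys. In E2f8, wild-type cisplatin replicates 2 and 3 lay close under the lowest FAN1KO cisplatin values, and replicate 1 lay at the level of saline. The fit on recovered reads gave a genotype difference under cisplatin of 2.41 ± 0.67 for E2f7 (log2 ± SE, limma voom adjusted p = 0.0304) and of 1.94 ± 0.75 for E2f8 (limma voom adjusted p = 0.0940). In that fit, cisplatin against saline in FAN1KO kidneys gave 2.61 ± 0.69 for E2f7 (limma voom adjusted p = 0.0155) and 2.23 ± 0.78 for E2f8 (limma voom adjusted p = 0.0499).

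Cdt1 rose in FAN1KO kidneys under cisplatin, and the RNA of its inhibitor geminin did not pass the test. Cdt1 TPM was 4.08, 3.84 and 3.24 in wild-type saline, 3.91, 2.27 and 3.27 in FAN1KO saline, 4.12, 4.45 and 4.39 in wild-type cisplatin and 8.84, 8.52 and 11.1 in FAN1KO cisplatin kidneys. The wild-type cisplatin values lay just above the wild-type saline values, and the FAN1KO cisplatin values lay far above both. The genotype difference under cisplatin was 0.97 ± 0.17 (log2 fold change of TPM + 1 ± SE, limma adjusted p = 0.00404) and was called in all 12 fits that left out 1 library. Gmnn TPM was 21.2, 19.0 and 17.7 in wild-type saline, 18.1, 18.4 and 21.3 in FAN1KO saline, 15.4, 17.7 and 21.8 in wild-type cisplatin and 25.4, 22.8 and 22.7 in FAN1KO cisplatin kidneys. The FAN1KO cisplatin values were the highest, although by a small margin over wild-type cisplatin replicate 3. The genotype difference of Gmnn under cisplatin was 0.36 ± 0.14 (limma adjusted p = 0.0758), which was called when wild-type cisplatin replicate 3 was left out (limma adjusted p = 0.0320).

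The ratio of Cdt1 to Gmnn TPM was computed in each library. It was 0.192, 0.203 and 0.184 in wild-type saline, 0.216, 0.124 and 0.153 in FAN1KO saline, 0.267, 0.251 and 0.201 in wild-type cisplatin and 0.348, 0.373 and 0.490 in FAN1KO cisplatin kidneys. The 3 FAN1KO cisplatin libraries had the highest ratios of the 12. On the log2 scale the ratio differed by 0.75 between genotypes under cisplatin and by 1.32 between treatments in FAN1KO kidneys, each with p = 0.1 in a two-sided exact permutation test, which is the smallest p that 3 against 3 mice can give. Under saline the genotypes differed by -0.27 (exact permutation p = 0.4), and in wild-type kidneys cisplatin and saline differed by 0.31 (exact permutation p = 0.2).

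**Figure D2:**
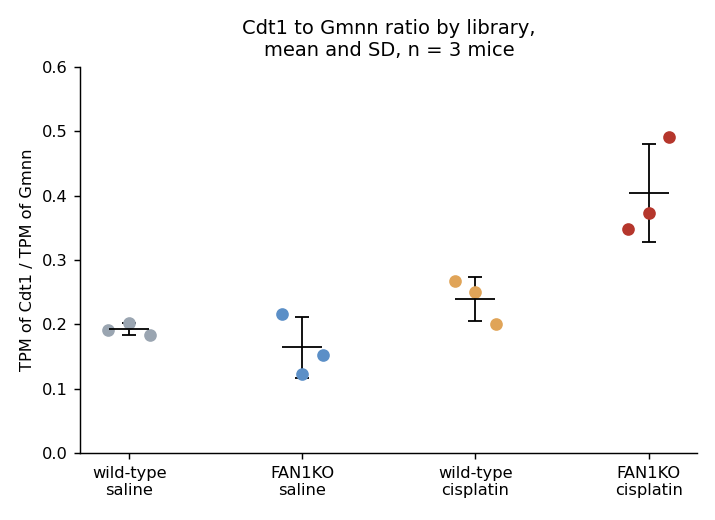
Ratio of Cdt1 to Gmnn TPM (y axis, from 0) in the 12 libraries by group (x axis); points are mice, the long bar is the mean and the error bar the SD of 3. The FAN1KO cisplatin libraries sit at 0.348 to 0.490, above the 9 other libraries, of which the highest is at 0.267.

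Rrm2, which encodes the regulated subunit of ribonucleotide reductase and is a classical E2F target, had the largest difference in log2(TPM + 1) of the 7 genes tested, although Ccne1 had the larger ratio of mean TPM. It stood at 4.73, 6.50 and 2.84 TPM in wild-type saline, 4.08, 4.24 and 3.43 in FAN1KO saline, 3.34, 5.80 and 5.97 in wild-type cisplatin and 17.7, 14.5 and 12.5 in FAN1KO cisplatin kidneys. The lowest FAN1KO cisplatin value was above the highest of the 9 others. The genotype difference under cisplatin was 1.42 ± 0.26 (log2 fold change of TPM + 1 ± SE, limma adjusted p = 0.00467), a ratio of mean TPM of 2.96, and it was called in all 12 fits that left out 1 library.

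FAN1KO cisplatin replicate 1 held the highest of all 12 values for 7 of the 10 genes, replicate 2 for Ccnd1 and replicate 3 for E2f7 and Cdt1. Without wild-type cisplatin replicate 1 or without FAN1KO cisplatin replicate 1 the number of genes called fell from 5 to 3, Ccnd1 and E2f1 being lost each time. The genes called higher among all tested fell from 2931 to 1442 and to 1169 in the same fits.

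Cisplatin against saline within FAN1KO kidneys used the same FAN1KO cisplatin libraries, so its result is not separate evidence. Of the 7 genes 5 were called higher and 0 lower, where 34.9% of all genes tested were called higher, and the 3 values lay above the other 3 for 9 of the 10 genes, all but E2f2, as for 47.4% of all. The differences were 1.68 ± 0.26 for Rrm2 (log2 fold change of TPM + 1 ± SE, limma adjusted p = 0.00104) and 1.42 ± 0.19 for Ccne1 (limma adjusted p = 0.000571). Those of Cdt1, E2f1 and Ccnd1 were 1.35 ± 0.17, 0.94 ± 0.23 and 0.82 ± 0.16, and these 5 genes were called in all 12 fits that left out 1 library. Ccne1 passed the filter only through the FAN1KO cisplatin group, where it was high, so its p and its calls are descriptions. E2f2 at 0.47 ± 0.21 and Gmnn at 0.28 ± 0.14 did not pass (limma adjusted p = 0.0968 and 0.118). E2f2 was called, at 0.64, without FAN1KO saline replicate 1, the library with Y-linked RNA (limma adjusted p = 0.0475). Gmnn changed sign to -0.13 with median-ratio scaling. That scaling also moved the calls over all genes from 5229 higher and 733 lower to 2333 higher and 2047 lower. With it Ccnd1 and E2f1 were not called (limma adjusted p = 0.0618 and 0.0678).

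Genotype under saline and cisplatin in wild-type kidneys gave no call among the 7 genes with limma or with voom on recovered reads. Under saline 1 gene, Ccnd1, had an unadjusted p under 0.05, and the share of all genes called higher was 0.341%, with 51 higher and 64 lower, or 80 and 67 with median-ratio scaling. In wild-type kidneys 0 of the 7 genes had an unadjusted p under 0.05, and the share of all genes called higher was 0.0601%. The log2 differences of TPM + 1 ran from -0.44 for Ccnd1 to 0.08 for E2f1 under saline and from -0.13 for Ccnd1 to 0.31 for Ccne1 in wild-type kidneys. The mean of E2f8 was 3.16 times higher in wild-type cisplatin than in wild-type saline kidneys, but replicate 1 was the lowest of those 6 libraries, and the fit on recovered reads gave 1.06 ± 0.90 (log2 ± SE, limma voom adjusted p = 1.00).

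**Figure D3:**
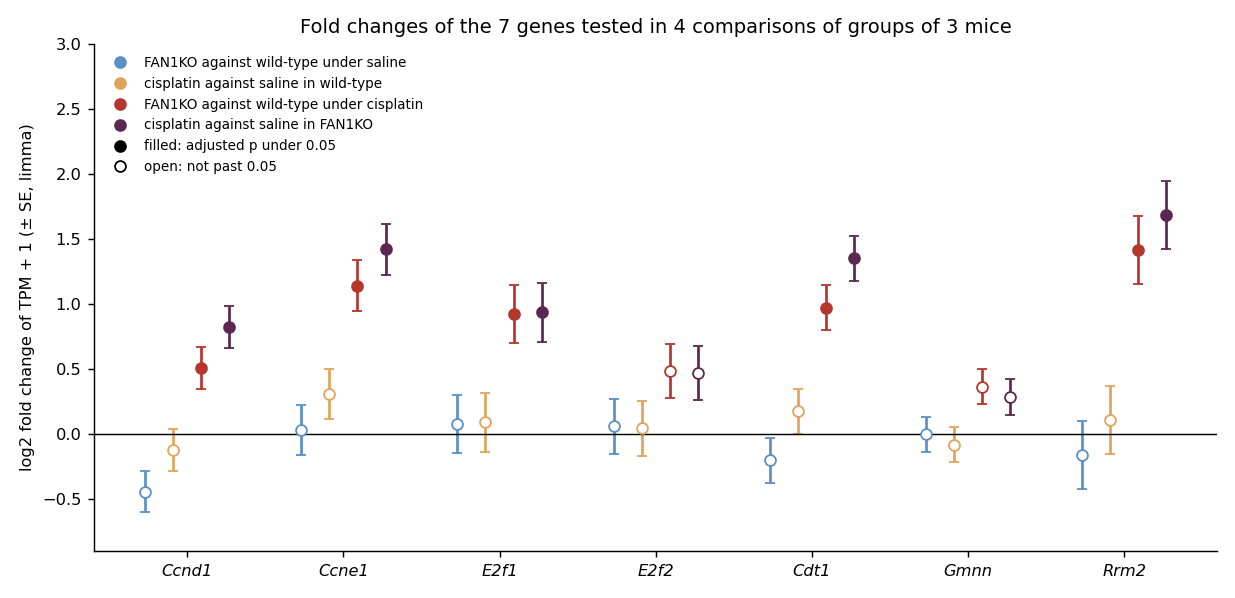
Log2 fold change of TPM + 1 with its SE from limma (y axis) for the 7 genes tested (x axis), in 4 comparisons of groups of 3 mice (colours); filled points have an adjusted p under 0.05. Filled points are limited to 5 genes in each of the comparisons that hold the FAN1KO cisplatin group, and Gmnn in cisplatin against saline in FAN1KO, 0.28 here, changed sign to -0.13 with median-ratio scaling.

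Whether the response to cisplatin differed by genotype was tested as an interaction. Of the 7 genes 4 were called higher in it and 0 lower, where 5.22% of all genes tested were called higher. The differences between responses were 1.58 ± 0.37 for Rrm2 (log2 ± SE, limma adjusted p = 0.0366), 1.18 ± 0.25 for Cdt1 (limma adjusted p = 0.0248), 1.11 ± 0.27 for Ccne1 (limma adjusted p = 0.0426) and 0.95 ± 0.23 for Ccnd1 (limma adjusted p = 0.0394). The value of Ccne1 is a description, since it passed the filter only through the FAN1KO cisplatin group. E2f1 at 0.85 ± 0.32, E2f2 at 0.43 ± 0.30 and Gmnn at 0.37 ± 0.19 did not pass. These calls were not stable: with 1 library left out between 0 and 4 genes were called, and with median-ratio scaling 1 was, Rrm2, while the calls over all genes moved from 782 higher and 153 lower to 374 higher and 184 lower. None was called without wild-type saline replicate 1 or 2, wild-type cisplatin replicate 1 or FAN1KO cisplatin replicate 1 or 2. Without any 1 FAN1KO saline replicate or without wild-type cisplatin replicate 2 a single gene was called, and without wild-type cisplatin replicate 3 the count was 2. Without wild-type saline replicate 3 it was 3, Ccne1 being lost.

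The wider cell cycle was followed in 8 lists of 108 genes, of which 95 were tested. Some of the 95, such as Ccnb1, Anln and Dtl, passed the filter only through the FAN1KO cisplatin group, where they were high. Counts in comparisons that hold that group are therefore descriptions. Between FAN1KO and wild-type cisplatin kidneys 50 of the 95 rose and 0 fell, where 19.6% of all genes tested were called higher, and their median log2 fold change was 0.59. With median-ratio scaling 39 were called, of which 3 were lower. The count was 33 without wild-type cisplatin replicate 1 and 31 without FAN1KO cisplatin replicate 1. Under saline 1 was called higher, where 0.341% of all genes tested were, and 1 lower. The former was Mcm6, a subunit of the replicative helicase, at 2.01 ± 0.25 (log2 fold change of TPM + 1 ± SE, limma adjusted p = 0.00501). The latter was the CDK inhibitor Cdkn2c at -0.86 ± 0.16 (limma adjusted p = 0.0440), a call lost with median-ratio scaling (limma adjusted p = 0.227) and with voom on recovered reads (limma voom adjusted p = 0.0988). With 1 library left out its adjusted p from limma ranged from 0.0226 to 0.173.

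Other E2F, DP and pocket proteins, G1 cyclins and kinases, and CDK inhibitors were counted in that comparison, against the 19.6% of all genes tested that were called higher. Among other E2F, DP and pocket proteins 1 of 13 rose, Lin37, a part of the DREAM complex, at 0.57 ± 0.11 (log2 fold change of TPM + 1 ± SE, limma adjusted p = 0.00662). The median of that list, 0.13, turned to -0.11 with median-ratio scaling, with 0 higher and 3 lower, E2f6, Lin52 and Rbl2. Among other G1 cyclins and kinases 2 of 7 rose. They were Cdk4, the kinase partner of cyclin D, at 0.77 ± 0.13 (limma adjusted p = 0.00334) and Dbf4, which activates the kinase that fires origins, at 0.77 ± 0.18 (limma adjusted p = 0.0153). Among CDK inhibitors 2 of 6 rose, Cdkn2b at 2.12 ± 0.38 (limma adjusted p = 0.00397) and Cdkn1a, the p53 target that encodes p21, at 1.92 ± 0.39 (limma adjusted p = 0.00700).

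Ubiquitin ligase parts and genes of origins and S phase were counted in the same way, against the 19.6% of all genes tested that were called higher. Of 11 parts of ubiquitin ligases that act on cyclin E, Cdt1 or geminin, 8 rose, with the largest named values in Cdc20 at 1.64 ± 0.31 (log2 fold change of TPM + 1 ± SE, limma adjusted p = 0.00545) and Cks1b at 1.48 ± 0.23 (limma adjusted p = 0.00217). Of 17 genes of origin licensing and firing 9 rose, with Mcm6 at 2.86 ± 0.25 (limma adjusted p = 0.000136) and Gins2, a helicase cofactor, at 2.31 ± 0.27 (limma adjusted p = 0.000586). Mcm6 was also higher in FAN1KO kidneys under saline, at 2.01 ± 0.25, and was not called in the interaction. Of 19 genes of DNA precursors and S phase 10 rose, with the histone chaperone subunits Chaf1b at 1.87 ± 0.29 and Chaf1a at 1.23 ± 0.19 (limma adjusted p = 0.00218 and 0.00222). The counts were 5, 5 and 8 in these 3 lists with median-ratio scaling, where 1388 of the 14972 genes tested were called higher. Dtl, of the ubiquitin ligase list, passed the filter only through the FAN1KO cisplatin group, where it was high, so the count of that list is a description.

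Genes of G2, mitosis and cytokinesis rose too. Of 16 genes of G2 and mitosis 14 rose, with a median of 1.07, and of 7 genes of cytokinesis 5 rose, with a median of 0.99. Of all genes tested 19.6% were called higher, and the median over all of them was 0.24. With median-ratio scaling 11 and 4 were called, where 1388 of the 14972 genes tested were called higher. Some of these genes, among them Ccnb1 and Anln, passed the filter only through the FAN1KO cisplatin group, where they were high. Their values, and the counts and medians of these lists, are descriptions. Cdk1, the mitotic kinase, was at 1.48 ± 0.24 (log2 fold change of TPM + 1 ± SE, limma adjusted p = 0.00254), and its mean TPM was 1.01 ± 0.502 in wild-type and 4.52 ± 0.649 in FAN1KO cisplatin kidneys (SD, n = 3). Top2a was at 1.42 ± 0.26 (limma adjusted p = 0.00428), Mki67, a marker of cycling cells, at 1.03 ± 0.21 (limma adjusted p = 0.00755), Ccnb1 at 0.94 ± 0.18 (limma adjusted p = 0.00568) and Ccna2 at 0.79 ± 0.22 (limma adjusted p = 0.0294). The cytokinesis genes with the smallest p were Anln at 1.00 ± 0.18, Aurkb, a kinase of chromosome segregation, at 1.28 ± 0.27 and Incenp, its partner, at 0.93 ± 0.25.

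**Figure D4:**
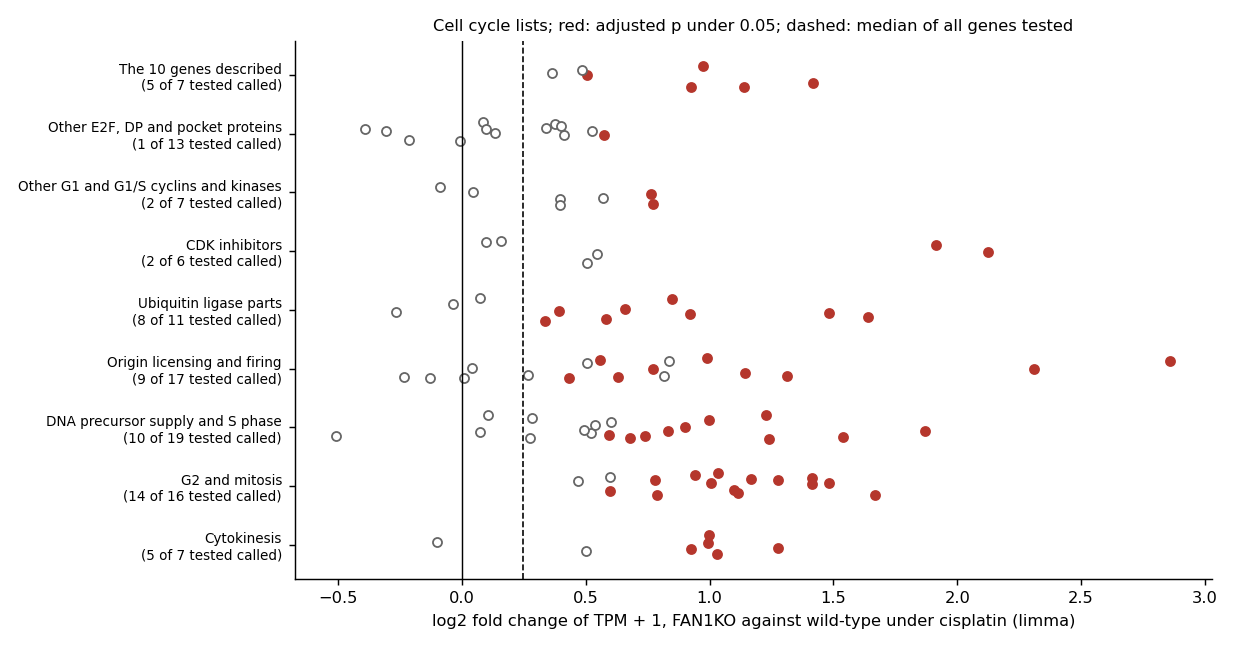
Log2 fold change of TPM + 1 from limma (x axis) of FAN1KO over wild-type cisplatin kidneys, 3 mice each, by list (y axis, with spread only to part the points); red points have an adjusted p under 0.05 and the dashed line is the median of all genes tested, 0.24. The mitotic list lies to the right of 0 as a whole, while the other E2F and pocket protein genes lie on both sides of 0, and their median of 0.13 turned to -0.11 with median-ratio scaling. Some genes of the mitotic list passed the filter only through the FAN1KO cisplatin group, where they were high.

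Cisplatin against saline in FAN1KO kidneys gave 66 of the 95 genes called higher, where 34.9% of all genes tested were, and 1 lower. With median-ratio scaling 57 were called, of which 9 were lower. In wild-type kidneys 1 of the 95 rose, Cdkn1a, at 3.43 ± 0.39 (log2 fold change of TPM + 1 ± SE, limma adjusted p = 0.0222). Cdkn1a rose by 5.56 ± 0.39 in FAN1KO kidneys (limma adjusted p = 3.42e-05), with a mean TPM of 7.04 ± 1.43 under saline and 398 ± 157 under cisplatin (SD, n = 3). In the interaction 18 of the 95 were called higher, where 5.22% of all genes tested were, and 0 lower. The count was 7 with median-ratio scaling and ranged from 2, without FAN1KO cisplatin replicate 1, to 14 with 1 library left out. Among the 18 were Mcm7 at 1.22 ± 0.19 (limma adjusted p = 0.0111) and Uhrf1 at 1.88 ± 0.35 (limma adjusted p = 0.0174).

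Markers of kidney cell types were read in the same libraries. Of 10 proximal tubule markers 7 fell in FAN1KO relative to wild-type cisplatin kidneys, where 654 of the 14972 genes tested were called lower. Their summed TPM was 21726 to 80454 in wild-type and 4000 to 20435 in FAN1KO cisplatin kidneys. The sum was carried in large part by Kap, with 12174 to 70903 TPM in wild-type and 555 to 14075 TPM in FAN1KO cisplatin kidneys, which was not itself called (limma adjusted p = 0.0648). The medians of Kap were 12345 and 724 TPM, so 1 library in each group set the top of the range. With median-ratio scaling 5 of the 10 fell, where 1155 of all genes tested were called lower and 1388 higher. All 6 markers of injured tubule rose, where 19.6% of all genes tested were called higher, or 5 with median-ratio scaling. Their sums were 416 to 2220 and 7658 to 12152 in the same groups. Krt20 passed the filter only through the FAN1KO cisplatin group, where it was high, so this count is a description. Of 10 leukocyte and macrophage markers 2 rose, Cd14 and Cd68, a share like that of all genes tested, or 1 with median-ratio scaling, with sums of 76.1 to 258 and 257 to 571, but Ptprc, which marks leukocytes in general, was at 0.44 (log2 fold change of TPM + 1, limma adjusted p = 0.395). Of 7 T and B cell markers tested 1 rose, Cd8a, where 19.6% of all genes tested were called higher. With median-ratio scaling 0 of them rose, and the sums were 3.68 to 11.9 and 6.65 to 22.7. No marker in the table was at 0 in every library, and the part of these cell types in the cell cycle genes was not tested.

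The other marker lists were of stroma, vessels and blood. Of the 8 fibroblast and pericyte markers, the 6 of endothelium and the 2 neutrophil markers that passed the filter, 0 changed by limma between genotypes under cisplatin. Of the 3 erythroid markers tested 1 rose, Klf1, and 1 fell, Alas2. The summed TPM under cisplatin was 72.2 to 280 in wild-type and 102 to 207 in FAN1KO kidneys for fibroblasts, 82.7 to 403 and 60.7 to 214 for endothelium, 1.51 to 5.56 and 6.97 to 10.5 for neutrophils, and 28.9 to 58.7 and 12.9 to 20.1 for the erythroid list. Of the 6 erythroid markers listed 4 had values. Their sum was mostly Alas2 and Slc4a1, with means of 28.5 and 15.7 TPM in wild-type and 0.770 and 13.7 in FAN1KO cisplatin kidneys.

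The genes whose pattern over the 12 libraries was most like the mean of the standardised values of the 7 genes tested were Spred3, Krtcap3, Flot2, Ncaph, Tcf19 and Mcph1, with Pearson r from 0.979 to 0.986. The libraries share depth, groups and scaling, and after removal of the group means r ran from 0.835 for Ncaph to 0.915 for Tcf19. Mki67 ranked 86, Top2a 144 and Cdk1 204 in the same order, with r of 0.960, 0.955 and 0.950, while Ccna2 ranked 782, Ccnb1 2144 and Cdkn1a 3657, with r of 0.919, 0.870 and 0.812. After removal of the group means r was 0.873 for Mki67, 0.703 for Top2a, 0.647 for Cdk1, 0.714 for Ccna2, -0.0059 for Ccnb1 and 0.610 for Cdkn1a. Between pairs of the 7 genes r of the deviations from group means was highest for E2f1 with E2f2, at 0.827, and lowest for Ccnd1 with Cdt1, at -0.309.

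Several of the 10 genes overlap other annotated genes, and whether reads were counted by strand is not given in the sources used here. The partners were A630034I12Rik and Ints8 for Ccne2, LTO1 for Ccnd1, Necab3 for E2f1, Gm51780 for E2f7, and LOC115486422 and Gm2788 for E2f8, so their values are uncertain to the extent that reads were shared. Ccne1, E2f2, Cdt1, Gmnn and Rrm2 overlap none.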

How the data were processed

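Whole-kidney RNA of 12 mice was sequenced in paired reads, and groups and replicate numbers came from the labels. The authors deposited TPM per gene (27179 NCBI Gene numbers). The submitters' processing notes name mm10 and limma. The aligner, counter and annotation are not given in the sources used here. Names came from RefSeq (GRCm38.p6), which named 25275 identifiers. The 10 genes and all lists were chosen with earlier results of these data known.

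Genes that reached a TPM of 1 in 3 or more libraries (14972) were tested by limma 3.58.1 (R 4.3.3) on log2(TPM + 1), with 4 group means over all 12 libraries, a mean-variance trend, Benjamini-Hochberg adjustment and a threshold of 0.05. Whole reads were recovered from the deposited TPM steps (232991 of 232991 values above 0 whole within 0.02 reads). A read in a gene of 1 kilobase was worth 0.0200 to 0.0479 TPM. Python 3.11.15 with scipy 1.17.1 gave exact permutation tests. Columns of values left out were 0.

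Alternatives were a pseudocount of 0.1, no filter, only the 6 libraries compared, median-ratio scaling, the replicate block, no trend, a Y-linked covariate, a threshold of 0.1, voom on recovered reads and each library left out. A further one, voom on all genes with 10 reads, was chosen after seeing the data, as was running the alternatives on the cell cycle lists. All 10 genes are named. For the lists the genes named were up to 3 per list and comparison with the smallest adjusted p among those called, and Cdkn1a, Mki67, Top2a, Ccna2, Ccnb1 and Cdk1. Likeness was Pearson r with the mean standardised value of the 7 genes tested. The steps were tested on simulated data. Whether mice of a group shared a litter or a run is not in the labels, so p-values measure the spread between these mice only. The result of 1 list gene is not reported here.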

Additional observations from a re-analysis of the deposited data

Results flagged for a closer look

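In 4 genes the response to cisplatin differed between the genotypes by the interaction term of limma, a test of the difference itself, and 5.22% of all genes tested were called higher by it. The difference of log2 responses was 1.58 for Rrm2, 1.18 for Cdt1, 1.11 for Ccne1 and 0.95 for Ccnd1, all larger in FAN1KO kidneys, and no explanation was tested. Ccne1 passed the filter only through the FAN1KO cisplatin group, where it was high, so its value is a description. In fits that left out 1 library the call was held in 3 of 12 for Rrm2, 6 of 12 for Cdt1, 1 of 12 for Ccne1 and 3 of 12 for Ccnd1. Groups of 3 libraries were not searched for outlying samples.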

How the results depend on the processing

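Numbers of the 10 genes called moved as follows. Under cisplatin, FAN1KO against wild-type went from 5 to 3 with median-ratio scaling, and ranged from 3 to 5 with 1 library left out. That count was 4 with the 6 libraries alone, the replicate block or no trend. With the Y-linked covariate, voom on all genes with 10 reads or the threshold of 0.1 it was 6. Cisplatin against saline in FAN1KO kidneys went from 5 of 7 tested to 8 of 10 with no filter, when Ccne2, E2f7 and E2f8 were tested too. It went to 3 with median-ratio scaling, and ranged from 5 to 6 with 1 library left out. The interaction went from 4 to 1 with median-ratio scaling, 0 with the replicate block and 1 with voom on all genes with 10 reads, and ranged from 0 to 4 with 1 library left out. The calls under saline and in wild-type kidneys were 0 throughout.

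Of the list genes, calls under saline went from 2 to 1 with no filter, the 6 libraries alone, the replicate block, no trend and both voom fits, the lower call being lost, as it was with median-ratio scaling, and were 1 to 2 with 1 library left out. In wild-type kidneys they went from 1 to 0 with the 6 libraries alone and the replicate block and to 2 with the Y-linked covariate, and were 0 to 1 with 1 library left out. In the interaction they went from 18 to 9 with the pseudocount of 0.1, 7 with median-ratio scaling, 6 with the replicate block, 53 with the covariate, 10 with voom, 7 with voom on all genes with 10 reads and 29 at the threshold of 0.1, and were 2 to 14 with 1 library left out. Under cisplatin between genotypes they were 31 to 55, and between treatments in FAN1KO kidneys 50 to 70, with 1 library left out.

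Signs turned in values that passed no test. Gmnn under saline was 0.0466 with median-ratio scaling and 0.00116 with the covariate, E2f2 in wild-type kidneys was -0.00348 with median-ratio scaling, and Gmnn in FAN1KO kidneys was -0.13. With 1 library left out, differences under saline ranged from -0.0401 to 0.108 for Ccne1, -0.109 to 0.236 for E2f1, -0.116 to 0.172 for E2f2, -0.0753 to 0.0649 for Gmnn and -0.419 to 0.0648 for Rrm2. Those in wild-type kidneys ranged from -0.0456 to 0.276 for E2f1, -0.0556 to 0.145 for E2f2, -0.208 to 0.0290 for Gmnn and -0.152 to 0.331 for Rrm2. The Cdt1 to Gmnn log2 ratio ranged from 0.597 to 0.845 between genotypes under cisplatin, from -0.484 to -0.0806 under saline, from 1.13 to 1.54 in FAN1KO and from 0.223 to 0.427 in wild-type kidneys.

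Same-numbered libraries are different mice, and their deviations from group means correlated at -0.243 to -0.144 on average, so the numbers do not pair them. Calls of higher expression over all genes went from 2931 to 1721 with the 6 libraries alone and 6035 with the covariate between genotypes under cisplatin, and from 51 to 11, 32 with the replicate block and 173 with the covariate under saline. They went from 5229 to 7919 with the covariate in FAN1KO kidneys, from 9 to 0 with the 6 libraries or the block, 15 with median-ratio scaling and 57 with the covariate in wild-type kidneys, and from 782 to 351 with the block, 4088 with the covariate and 485 with voom on all genes with 10 reads in the interaction. With the block 4 in place of 7 proximal tubule markers and 0 in place of 2 leukocyte markers were called between genotypes under cisplatin. The causes were not tested. Depth limits E2f7 and E2f8, with 4 to 79 reads per library.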
